A study of Mus musculus with 11 samples.

Results

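The cadherin superfamily outside the clustered protocadherins was followed through single-nucleus RNA counts of mouse trigeminal ganglion neurons, the sensory neurons of the face. Members were taken by symbol: Cdh, Pcdh, Fat, Dchs, Celsr or Clstn followed by digits only, with at least 50 unique molecular identifiers (UMIs, 1 per captured RNA molecule) summed over the 10x tables. Of 45 matching symbols 39 passed, among 24243 symbols listed. The 6 below the limit were Cdh17 (10 UMIs), Fat2 (19), Cdh16 (25), Pcdh12 (27), Cdh24 (28) and Pcdh20 (39), and the members nearest above it were Cdh26 (67), Pcdh8 (118) and Cdh5 (229). The 39 comprised 4 type I and 12 type II classical cadherins, the GPI-anchored Cdh13, the tip-link pair Cdh23 and Pcdh15, 3 delta-1 and 5 delta-2 protocadherins, 3 Fat, 2 Dachsous and 3 Celsr genes, 3 calsyntenins and Cdh26.

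Cadherins are membrane proteins whose extracellular repeats bind calcium and, in the classical members, the same cadherin on the next cell. Classical cadherins hold junctions and synapses together through catenins and actin, delta-protocadherins signal to actin regulators, Fat and Dachsous proteins bind one another across cell borders, Celsr proteins act in planar polarity and axon guidance, and calsyntenins dock kinesin-driven cargo and organize synapses. Pcdh15 and Cdh23 are best known as the filament that joins the stereocilia of inner ear hair cells. In sensory ganglia, type II cadherins are known for combinatorial expression among neuron types.

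Nuclei came from adult mice, males and females pooled, and were selected with an antibody to the neuronal protein NeuN. Uninjured C57BL/6 controls were profiled once on 10x (10 mice) and in a pooled Drop-seq table (16 mice). Ipsilateral ganglia were taken 2, 7, 21 and 75 days after infraorbital nerve transection (IOT), in which the superficial 3 branches of the infraorbital nerve were cut (10, 10, 10 and 6 C57BL/6 mice), and 2 days after facial injury, a set of skin cuts to the face (10 C57BL/6 mice). Scratch lesion ganglia came from 10 mice of a mixed FVBN, C57BL and 129 background that carried Fos-tTA and tetO-mCherry-2A-Gnaq, and had chronic itch with skin lesions, so that injury, strain and transgenes cannot be told apart in that library. Each injury condition was 1 library, without replicates.

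The tables held 40359 nuclei and 132982556 UMIs, 3178 to 8660 nuclei and 7735811 to 22003842 UMIs a table, with a median of 1747 (IOT day 7) to 4178.5 (IOT day 75) UMIs per nucleus. Libraries shared 16 to 92 cell barcodes a pair (0.42 to 1.37% of the smaller one). Members took 0.853% of UMIs in the 10x control, 0.922% at IOT day 2, 0.547% at day 7, 0.996% at day 21, 0.688% at day 75, 0.713% after facial injury, 0.631% with scratch lesions and 0.412% in Drop-seq. Since each condition was 1 library, comparisons were made within libraries and asked whether a difference recurred over them. In such summed counts, fewer nuclei with a transcript and fewer transcripts per nucleus cannot be told apart.

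Promoter windows of the members on which the results turn are shown first, so that the class and injury patterns can be read beside their DNA. Each is the RefSeq window of 300 bases on GRCm38.p6, 250 before the annotated start and 50 after it, on the gene's strand, with CG dinucleotides in capitals. They lie at chr15:16728665-16728964 (Cdh9, plus strand), chr15:18820079-18820378 (Cdh10, plus), chr8:99416422-99416721 (Cdh8, minus), chr5:57717831-57718130 (Pcdh7, plus), chr10:73821617-73821916 (Pcdh15, plus) and chr10:60696441-60696740 (Cdh23, minus). The first 4 mark neuron classes and the last 2 form the tip link. The Pcdh15 window is at an internal RefSeq start, 723 kb into the GENCODE span of the gene, and that of Cdh10 lies 1.38 kb into its span, while the other 4 lie within 1 kb of the span's start.
Cdh9: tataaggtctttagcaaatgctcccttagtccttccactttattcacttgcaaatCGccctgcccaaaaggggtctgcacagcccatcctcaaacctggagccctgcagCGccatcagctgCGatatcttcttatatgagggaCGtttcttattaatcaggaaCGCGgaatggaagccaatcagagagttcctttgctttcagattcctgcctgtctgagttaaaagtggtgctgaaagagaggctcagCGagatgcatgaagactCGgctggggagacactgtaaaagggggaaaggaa
Cdh10: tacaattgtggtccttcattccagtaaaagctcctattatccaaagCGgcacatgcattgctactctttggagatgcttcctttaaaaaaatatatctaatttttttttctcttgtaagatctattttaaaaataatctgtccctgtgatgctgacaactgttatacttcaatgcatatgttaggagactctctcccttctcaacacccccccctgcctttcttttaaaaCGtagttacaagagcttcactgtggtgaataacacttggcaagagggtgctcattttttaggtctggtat
Cdh8: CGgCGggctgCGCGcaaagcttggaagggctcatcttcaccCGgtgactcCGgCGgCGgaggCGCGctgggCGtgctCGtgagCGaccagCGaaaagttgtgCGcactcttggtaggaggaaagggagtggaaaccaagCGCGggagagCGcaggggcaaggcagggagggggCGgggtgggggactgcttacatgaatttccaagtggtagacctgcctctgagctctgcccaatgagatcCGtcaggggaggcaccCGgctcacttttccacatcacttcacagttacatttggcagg
Pcdh7: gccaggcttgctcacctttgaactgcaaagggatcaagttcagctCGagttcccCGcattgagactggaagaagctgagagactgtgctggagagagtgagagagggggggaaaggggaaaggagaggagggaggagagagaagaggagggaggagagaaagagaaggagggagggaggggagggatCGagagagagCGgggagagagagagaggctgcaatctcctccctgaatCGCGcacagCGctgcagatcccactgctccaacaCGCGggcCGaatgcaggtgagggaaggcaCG
Pcdh15: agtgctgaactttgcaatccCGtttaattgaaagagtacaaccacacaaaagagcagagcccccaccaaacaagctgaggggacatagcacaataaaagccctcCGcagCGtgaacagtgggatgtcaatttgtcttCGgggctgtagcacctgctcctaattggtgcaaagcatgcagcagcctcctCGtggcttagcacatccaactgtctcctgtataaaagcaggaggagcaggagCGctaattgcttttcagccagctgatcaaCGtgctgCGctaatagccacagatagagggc
Cdh23: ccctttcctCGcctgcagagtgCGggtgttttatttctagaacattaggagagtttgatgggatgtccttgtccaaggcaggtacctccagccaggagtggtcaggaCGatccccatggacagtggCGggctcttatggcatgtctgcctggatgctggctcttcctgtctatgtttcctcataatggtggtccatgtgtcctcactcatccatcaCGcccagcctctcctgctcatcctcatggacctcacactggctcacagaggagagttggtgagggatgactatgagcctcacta

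CG dinucleotides numbered 8 in the Cdh9 window, 2 in Cdh10, 21 in Cdh8, 11 in Pcdh7, 8 in Pcdh15 and 5 in Cdh23. Over the 32 windows that matched 28 members the median was 18 (2 to 48), and over all 32851 windows it was 7 (0 to 67). Among the windows shown only that of Cdh8 was above the member median, so members that mark classes lay on both sides of it. Cdh9 and Pcdh15, with 8 each, were near the median of all windows. Searched on both strands, TGANTCA, the sequence recognised by AP-1 dimers, was in 0 of 32 member windows and in 7.81% of all windows. TGACGTCA, the cAMP response element recognised by ATF and CREB proteins, was in 2 of 32 (6.25%; Clstn2 and a window of Clstn3) against 1.79% of all, and the E-box CANNTG in 16 of 32 (50%) against 72.3%. No motif contains another, although neighboring matches can share end letters. These matches are a description of short windows only. Cdh1, Cdh3, Cdh11, Cdh13 and Pcdh1, which are among the members called for injury state below, had no window and were not searched. Cdh7, Clstn3 and Pcdh9 were counted with multiple windows, those of Pcdh9 largely overlapping.

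Levels of members spanned several orders of magnitude in the 10x control. Counts included introns, so levels between genes are given per kilobase of the GENCODE vM21 gene span, as CPM per kb (CPM being a gene's UMIs scaled to a common total, as is usual). On that scale Clstn1, a kinesin cargo adaptor, led with 5.42 CPM per kb, followed by the delta-1 protocadherin Pcdh9 (4.55), Pcdh7 (2.38), Pcdh1 (2.37) and the Celsr3 gene of axon guidance (2.05). The lowest were Cdh26 (0.00603), Celsr1 (0.0123) and Cdh23 (0.0151). Without the division by length, Pcdh9 alone stood at 3993 CPM, and its span of 877.3 kb is among the longest. Pcdh15 spans 1550 kb and stood at 77.75 CPM, or 0.0501 CPM per kb.

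Neuron classes were read from clusters made without any member, and named by markers outside the family after the study's class numbers. The small ones were C1/2 (Trpm8 and Foxp2, cool-sensing), C3 (Fam19a4 and Cd34, low-threshold C-fibers) and C7-10 (Tac1, Calca and Trpv1, peptidergic nociceptors). Also small were C11 (Nppb and Sst, itch), C12 (Mrgpra3, itch) and C13 (Mrgprd, nonpeptidergic nociceptors). The large ones were C4/C6 (marker list S100b, Nefh, Nefm, Ntng1, Slit2, Rgs6 and Piezo2) and C5 (Ntrk2 and Cadps2). Of 27 clusters 12 stayed unnamed. No cluster named C4/C6 had S100b or Piezo2 among its leading markers, while unnamed clusters 4, 19 and 22 did. The large classes therefore leave out neurons rich in these markers. Levels by class use nuclei without Atf3 or Sema6a UMIs, genes that mark injured neurons. Clusters and levels come from the same nuclei, so the class tests ask only whether a level recurs over the 7 10x libraries. The same class held the highest level in 7 of 7 libraries for 18 of 39 members, and the top class by mean was also the top one in Drop-seq for 25. For 5 members (Cdh1, Cdh8, Cdh9, Clstn2 and Fat1) every library's value in the top class lay above every library's value in the next named class. C4/C6 was the top class of 11 members, C1/2 of 8, C7-10 of 5, C5 of 4, C3, C11 and C13 of 3 each and C12 of 2. The shares of all genes that meet the same rules are not given, so these counts are no result about the family.

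**Figure D1:**
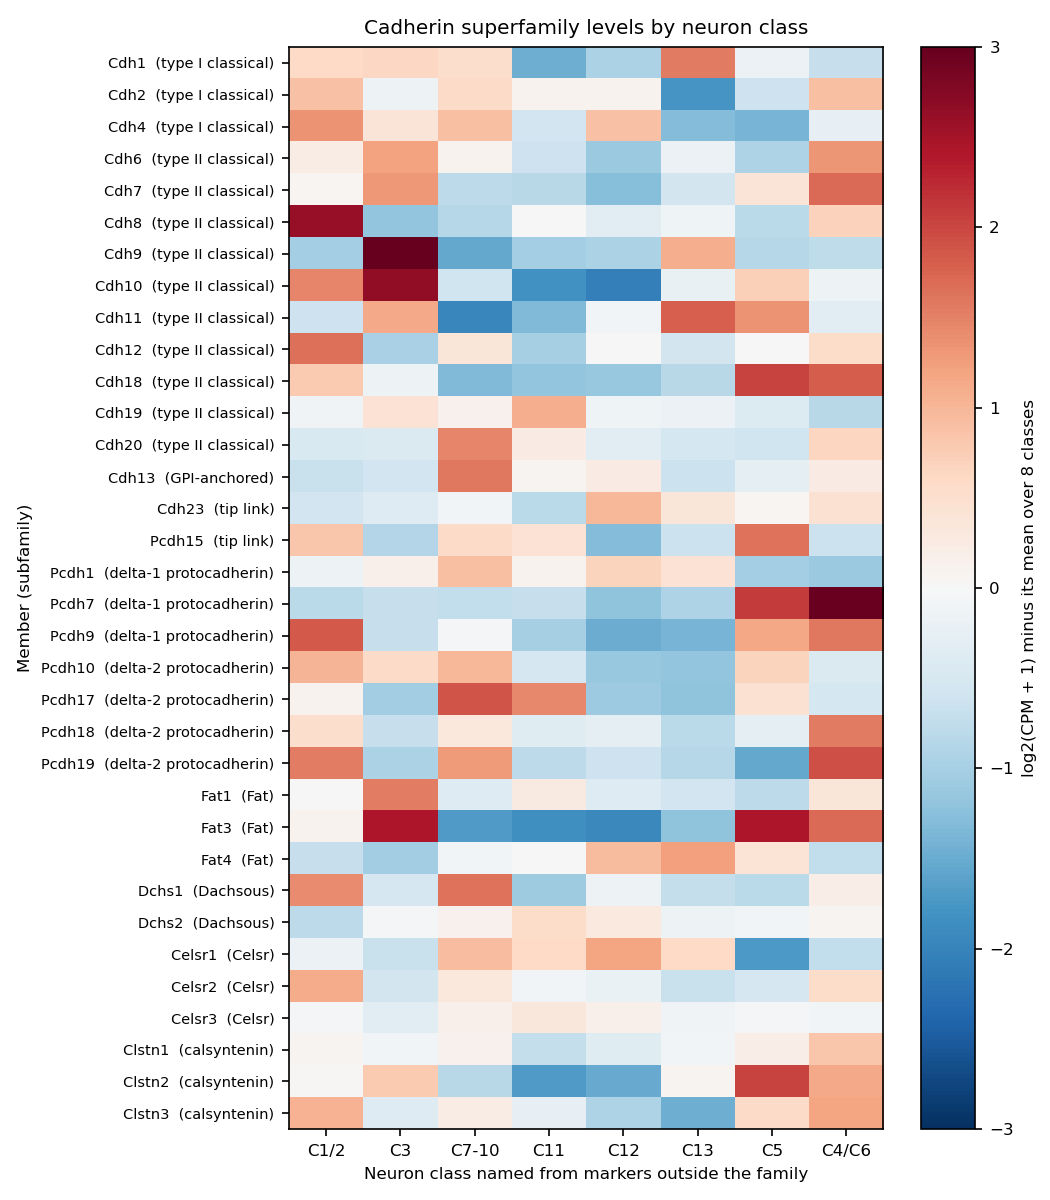
Heatmap of the 34 members with a class mean of 10 CPM or more (rows) over the 8 named neuron classes (columns) as log2(mean CPM + 1) over the 7 10x libraries minus the gene's mean over classes, red above and blue below that mean, with colors saturated at 3. Cdh9 in C3, Cdh8 in C1/2 and Pcdh7 in C4/C6 and C5 stand out, and C11 and C12 are mostly blue.

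The type II cadherin Cdh9, known from synaptic matching in retina and hippocampus, was the most class-restricted member. In C3 it stood at 529.9 CPM in the 10x control, 737.1 at IOT day 2, 454.7 at day 7, 929.7 at day 21, 514 at day 75, 684 after facial injury and 616.2 with scratch lesions, and at 390.1 in Drop-seq. In C13, the next named class, the same libraries gave 30.78, 55.03, 30.6, 51.35, 26.08, 37.05 and 51.41 CPM, and Drop-seq 18.42. Unnamed cluster 24 stood at 121.3 CPM with the 10x libraries pooled. No library of any other named class reached the C3 values, and the C3 mean of 637.9 CPM was 15.8 times that of C13 and 111 times that of C7-10, the lowest. In edgeR's quasi-likelihood test of each class against the mean of the other named classes, Cdh9 was higher in C3 by 5.82 on the log2 scale (SE 0.09, Benjamini-Hochberg adjusted p = 9.93e-89). In the 10x control 68.4% of C3 nuclei held a Cdh9 UMI (median 2698 UMIs per nucleus), or 32.8% after thinning each nucleus to 1000 UMIs, against 1.77% (0.505% thinned) in C7-10 (median 2567.5 UMIs), which serves as background.

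Its chromosomal neighbor Cdh10 (chr15:18818947-19014236, beside Cdh9 at chr15:16728756-16857094, mm10) peaked in the same class but less sharply. Cdh10 stood in C3 at 443.8 CPM in the 10x control, 523.7, 355.4, 660.5 and 365.1 at IOT days 2, 7, 21 and 75, 357.6 after facial injury and 236.5 with scratch lesions. In C1/2 the values were 173.5, 246.1, 159.5, 253.3, 140.3, 171.9 and 132. C3 was above C1/2 in each library, although the scratch lesion value of C3 lay within the C1/2 range. Cdh10 was higher in C3 than in the other classes by 3.03 (SE 0.08, adjusted p = 4.27e-63). Fat3, a giant atypical cadherin that shapes dendrites, was also higher there (2.78, SE 0.07, adjusted p = 3.76e-65), as was Fat1 (1.80, SE 0.16, adjusted p = 5.54e-18). In C3, 12 of 33 members tested were higher and 13 lower, where 15.2% of 10048 genes tested were higher and 12.6% lower. Schwann cell markers summed to a median of 1293 CPM in C3 against 572 to 1062 in the other classes, and their part in these results was not tested.

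**Figure D2:**
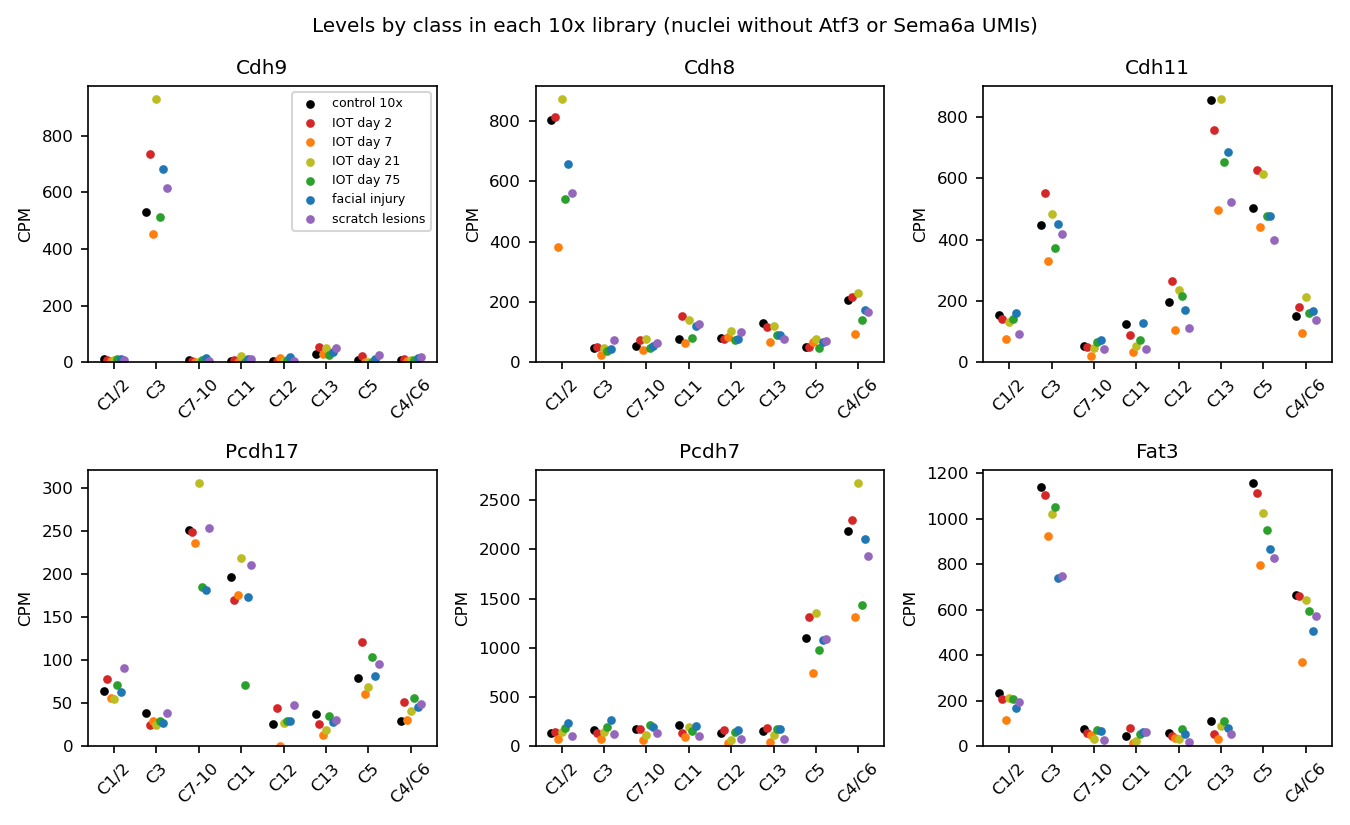
CPM of Cdh9, Cdh8, Cdh11, Pcdh17, Pcdh7 and Fat3 by neuron class, 1 panel per gene and 1 colored point per 10x library. For Cdh9 the C3 points lie between 454.7 and 929.7 CPM, above every point of the other classes.

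Cdh8, a type II cadherin known from cold-sensing and corticostriatal circuits, marked C1/2. Its CPM there was 802.7 in the 10x control, 815.4, 383.1, 874.3 and 541.5 at IOT days 2, 7, 21 and 75, 656.5 after facial injury and 561.9 with scratch lesions. Unnamed cluster 8 stood at 375.1 CPM with the 10x libraries pooled. The next named class, C4/C6, had 207.3, 217.8, 95.16, 229, 138.7, 174.8 and 166.1. The ranges of these 2 classes did not overlap, and Cdh8 was higher in C1/2 by 3.02 (SE 0.05, adjusted p = 1.75e-79). After thinning, 49.7% of C1/2 nuclei of the 10x control held a Cdh8 UMI (84.0% before, median 2862 UMIs), against 3.54% in C7-10. Cdh12 (2.19, SE 0.13), Pcdh9 (2.16, SE 0.06) and Pcdh19 (1.81, SE 0.11), a delta-2 protocadherin linked to epilepsy, were higher in C1/2 too. Altogether 14 of 33 members were higher there and 6 lower, beside 19.6% and 16.2% of all genes tested.

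The nociceptor classes differed in their members. In C13 Cdh11, a type II cadherin also typical of mesenchyme, stood at 855.5 CPM in the 10x control, 757.7, 495.4, 859.1 and 654.2 at IOT days 2, 7, 21 and 75, 685.5 after facial injury and 523.7 with scratch lesions. In C5 it stood at 502.9, 627, 441.7, 615.5, 478.4, 476 and 398.7, so that the ranges of its 2 highest classes overlapped while C13 led in each library. Cdh11 was higher in C13 than in the other classes by 2.12 (SE 0.05, adjusted p = 1.13e-64), E-cadherin (Cdh1) by 1.82 (SE 0.06) and Fat4 by 1.54 (SE 0.13). Cdh1 had a mean of 317.7 CPM in C13 and 165.5 in C3, the next named class. With the 10x libraries pooled, unnamed cluster 24 stood at 300.5 CPM of Cdh1 and the C13 cluster at 334.8. The C13 cluster led all clusters in 5 of 7 libraries. In C13, 7 of 33 members were higher, a share close to the 22.3% of all genes, and 17 were lower, beside 16.7%. Fibroblast markers summed to a median of 137 CPM in C13, inside the 88.4 to 164 of the other classes, and vascular markers to 93.9 against 24.9 to 65.5.

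In peptidergic C7-10 nuclei the delta-2 protocadherin Pcdh17, which sorts axons and presynaptic vesicles, stood at 250.8 CPM in the 10x control, 248.2, 236.4, 305.4 and 185.4 at the 4 IOT times, 181.8 after facial injury and 253.5 with scratch lesions. Its values in C11 were 197, 169.3, 176, 218.7, 71.43, 173 and 210.1, lower in each library but with overlapping ranges. Pcdh17 was higher in C7-10 by 2.08 (SE 0.08, adjusted p = 1.55e-48), Cdh13 (T-cadherin, which lacks an intracellular part) by 1.89 (SE 0.13), Cdh20 by 1.62 (SE 0.14) and Pcdh19 by 1.37 (SE 0.12). Here 13 of 33 members were higher and 8 lower, beside 18.1% and 12% of all genes. In the itch class C11, 2 members were higher and 13 lower (9.4% and 9.84% of all genes). In C12, 4 were higher, a share close to that of all genes (12.9%), and 16 lower (10.3% of all genes), among the higher ones Fat4 (1.17, SE 0.24), Cdh4 (1.03, SE 0.18) and Pcdh1 (0.76, SE 0.14). C11 and C12 were also small classes, with 35 to 139 and 56 to 210 nuclei without Atf3 or Sema6a UMIs per 10x library.

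C4/C6 was the class with the most higher members, and C5, the other large class, shared some of them. Pcdh7, a delta-1 protocadherin that binds protein phosphatase-1 in its cytoplasmic part, stood in C4/C6 at 2187 CPM in the 10x control, 2295, 1314, 2675 and 1433 at IOT days 2, 7, 21 and 75, 2110 after facial injury and 1932 with scratch lesions, and in C5 at 1096, 1312, 747.4, 1357, 977.4, 1080 and 1095. C4/C6 was above C5 in each library. Pcdh7 was higher in C4/C6 than in the other classes by 3.42 (SE 0.06, adjusted p = 3.75e-79) and in C5 by 2.43 (SE 0.08, adjusted p = 5.72e-53). After thinning, 84.7% of C4/C6 and 66.2% of C5 nuclei of the 10x control held a Pcdh7 UMI (98.9% and 95.4% before), against 9.23 to 14.1% in the small classes. Cdh7 (2.28, SE 0.19), Pcdh19 (2.24, SE 0.09) and Pcdh18 (2.18, SE 0.19) were higher in C4/C6 as well. In C5 the leading members were Fat3 (2.81, SE 0.07), Clstn2 (2.37, SE 0.06), a synaptic calsyntenin, and Cdh18 (2.35, SE 0.06). In C4/C6, 19 of 33 members were higher and 11 lower (30.3% and 27.6% of all genes), and in C5, 12 and 10 (14.5% and 12.3%).

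Fat3 was shared between C3 and C5. Its CPM in C5 was 1157 in the 10x control, 1113, 795, 1025 and 949.8 at the IOT times, 866.7 after facial injury and 828.5 with scratch lesions, and in C3 it was 1139, 1102, 925.4, 1019, 1051, 739.9 and 746.9. The ranges overlapped. C4/C6 followed at 372.2 to 666.9, C1/2 at 116 to 235.6, and C7-10, C11, C12 and C13 lay between 16 and 112.9.

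Other members were spread over classes. N-cadherin (Cdh2), found at most neuronal junctions, had means of 236.9 CPM in C4/C6 and 233.7 in C1/2, which overlapped, and 36.6 in C13, the lowest. Pcdh15 was highest in C5 (mean 209.2 CPM) and then C1/2 (119.6), Cdh19, also known from glia, in C11 (51.63), and Celsr2 in C1/2 (71.4). Celsr3 was the most even, from 36.57 CPM in C3 to 59.27 in C11. Cdh3, Cdh5, Cdh22, Cdh26, Dchs1 and Pcdh8 were too low for the class test, with class means of at most 10.9 CPM.

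Set directly against the 6 small classes, the large ones (C4/C6 and C5) were higher for 17 of 36 members and lower for 13, where 26.2% of 12687 genes tested were higher and 29.2% lower. Pcdh7 differed most. In the 10x control it stood at 2028 CPM in large and 159 in small nuclei, and at 648.6 and 61.25 in Drop-seq. Over the libraries it was higher in large nuclei by 3.73 (SE 0.11, adjusted p = 4.7e-23), followed among members at 10 CPM or more by Cdh18 (2.17), Cdh7 (1.91), Pcdh18 (1.70), Fat3 (1.59) and Clstn2 (1.38). All 3 calsyntenins were higher in large nuclei. Cdh9 was lower by 3.20 (SE 0.11, adjusted p = 1.49e-20), with 9.155 CPM in large and 91.89 in small nuclei of the 10x control, and Pcdh1 (-1.54), Cdh1 (-1.51), Fat4 (-1.06), Cdh19 (-0.90) and Cdh4 (-0.88) were lower as well. Each of the 30 called members had the same sign in Drop-seq alone, which was outside the test. The 10x control alone gave the same signs too, but it is 1 of the 7 libraries tested and no separate check. Among the unnamed clusters, Cdh12 peaked in cluster 20 (258.5 CPM) and Pcdh10 in cluster 7 (138.6 CPM), in 7 of 7 libraries each, and Cdh13 in cluster 24 (322 CPM), in 5 of 7. Cdh4 was highest in clusters 2 and 4 (150.8 and 150.3 CPM), above every named class, with cluster 2 leading in 4 of 7. Unnamed cluster 19, with Piezo2, S100b and Nefh among its leading markers, had 129.9 CPM of Cdh4.

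Injured neurons were read from Atf3, a transcription factor induced by axon damage, and Sema6a, a semaphorin, neither of which is a member. Nuclei with 2 or more UMIs of the pair counted as positive and nuclei with 0 as negative. Positive nuclei were 2.56% of the 10x control (112 nuclei), 17.9% at IOT day 2 (826), 10.8% at day 7 (434), 9.05% at day 21 (366), 8.31% at day 75 (302), 2.32% after facial injury (201), 4.1% with scratch lesions (321) and 1.32% in Drop-seq (42). In uninjured nuclei the pair itself follows class: positives made up 8.39% of C4/C6 and 7.43% of C5 in the 10x control and at most 1.68% of each small class. Positive nuclei were also deeper, with a median of 4188 UMIs against 3048.5 at IOT day 2. Of positive nuclei 65.7, 84.6, 58.5 and 28.1% lay in clusters named injured by their markers at IOT days 2, 7, 21 and 75. After facial injury 39.3% did, with scratch lesions 40.2% and in the 10x control 0.893%. The part of this mix in differences between times or injuries was not tested. The called members are therefore set beside 3 other references, and most of them beside the ratio in the control: negative nuclei of the large classes only, of the small classes only, and clusters named injured by their markers (1355 nuclei in cluster 11 and 521 in cluster 23) against all other clusters.

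Over the 4 IOT libraries, 9 of 37 members tested rose in positive nuclei and 7 fell, where 8.96% of 15864 genes tested rose and 7.3% fell (edgeR's quasi-likelihood test with library as a block, adjusted p under 0.05). The median log2 change was -0.03 over members and -0.01 over all genes. By subfamily, type I had 1 higher and 1 lower of 4, type II 1 and 3 of 12, delta-1 1 and 1 of 3, delta-2 0 and 2 of 4, Fat 1 and 0 of 3, calsyntenins 2 and 0 of 3 and the tip link 2 and 0 of 2. Cdh13, the only GPI-anchored member, rose. By injured clusters in place of Atf3 and Sema6a, an alternative chosen after seeing the data, 9 of 38 members were higher and 11 lower, beside 13.8% and 11.9% of genes. No Dachsous or Celsr gene passed the test, and Cdh26 and Pcdh8 were too low to be tested.

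Pcdh15 moved furthest. In positive nuclei it stood at 663.3 CPM at IOT day 2, 388.2 at day 7, 577.8 at day 21 and 218.5 at day 75, and in negative nuclei at 98.66, 74.86, 98.47 and 58.6. The ranges did not overlap, and the log2 rise was 2.45 (SE 0.13, adjusted p = 2.27e-08). In the 10x control, positive and negative nuclei were alike in value (81.9 and 77.75 CPM), as they were in Drop-seq (36.51 and 36.21). The rise was 2.61 against large classes, 2.44 against small classes and 3.34 by injured clusters. At IOT day 2, 63.4% of positive nuclei held a Pcdh15 UMI and 24.7% of negative ones, or 36.9% and 9.13% after thinning to 1000 UMIs, against 8.04% and 7.20% in the thinned 10x control. Among negative nuclei C5 had the highest level, between 131.4 and 296.3 CPM over the 10x libraries, below the positive nuclei of days 2, 7 and 21 but on both sides of the 218.5 CPM of day 75.

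**Figure D3:**
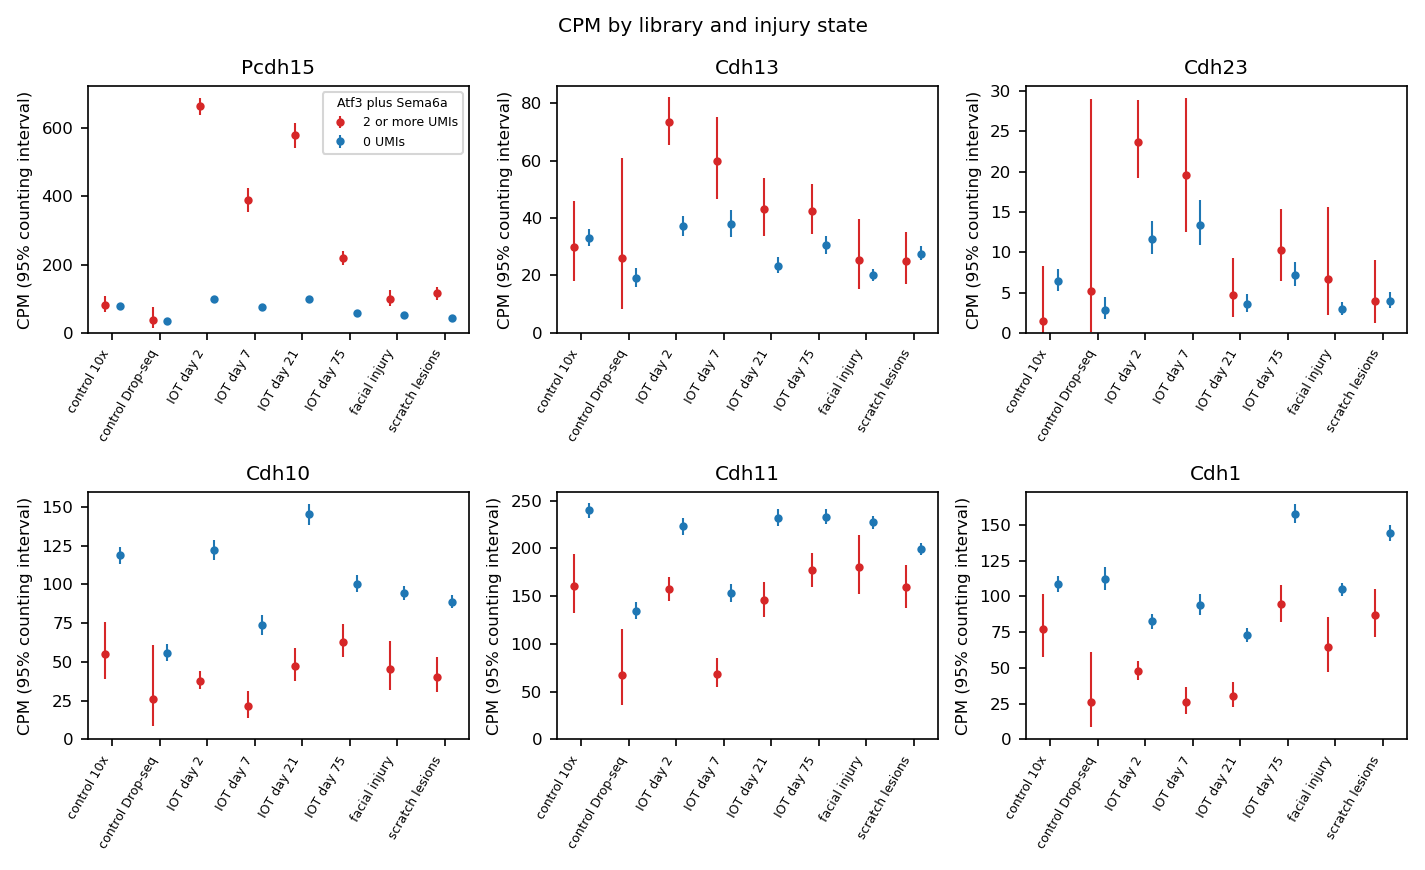
CPM of 6 members by library in nuclei with 2 or more UMIs of Atf3 plus Sema6a (red) and with 0 (blue), with 95% exact Poisson intervals that cover counting error only. For Pcdh15 the pairs part in the 4 IOT libraries, less in facial injury (99.17 and 50.98) and scratch lesions (115.4 and 43.57), and coincide in both controls.

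The tip-link partner Cdh23 rose by 0.75 (SE 0.20, adjusted p = 0.0165), from a low base: 23.71 CPM in positive and 11.71 in negative nuclei at day 2, 19.61 and 13.44 at day 7, 4.712 and 3.603 at day 21, and 10.26 and 7.24 at day 75. It was higher in 4 of 4 libraries, though the ranges overlapped. Cdh13 gave 73.54, 59.66, 42.99 and 42.36 CPM in positive and 37.14, 38.01, 23.38 and 30.47 in negative nuclei, without overlap, and rose by 0.81 (SE 0.12, adjusted p = 0.000201), while the 10x control had 29.78 and 32.98. P-cadherin (Cdh3) gave 14.37, 16.35, 4.712 and 8.472 against 4.806, 6.359, 3.352 and 5.958 CPM, and rose by 1.12 (SE 0.26, adjusted p = 0.00664), with overlapping ranges. These 4 members rose under each of the other 3 references as well, by 0.88 to 1.23 for Cdh23, 0.81 to 1.57 for Cdh13 and 1.06 to 2.1 for Cdh3. With the state read from Atf3 alone, Cdh23 lost its call (0.41, adjusted p = 0.483). In the control libraries Cdh3 and Cdh23 had 1 UMI each in positive nuclei, too few for a ratio.

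Cdh10 and Cdh11 fell under all 4 references. Cdh10 gave 37.85, 21.25, 47.12 and 62.87 CPM in positive nuclei at days 2, 7, 21 and 75 and 121.8, 73.56, 145 and 100.5 in negative ones, without overlap. It fell by 1.35 (SE 0.14, adjusted p = 1.21e-05), and by 0.65 against large classes, 1.66 against small classes and 2.13 by injured clusters. The 10x control had a log2 ratio of -1.11 by the same split (55.1 and 118.6 CPM), so that positive control nuclei were already low. Cdh11 gave 157.1, 68.65, 145.5 and 177 against 223, 152.8, 232.1 and 233, and fell by 0.60 (SE 0.10, adjusted p = 0.000503). Its control ratio was -0.58. Cdh1 fell too (log2 change -1.0, SE 0.13, adjusted p = 7.3e-05), with 47.67, 26.15, 30.63 and 94.53 against 82.49, 94.08, 73.24 and 158 CPM, but its change was -0.37 against the large classes (adjusted p = 0.0504).

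**Figure D4:**
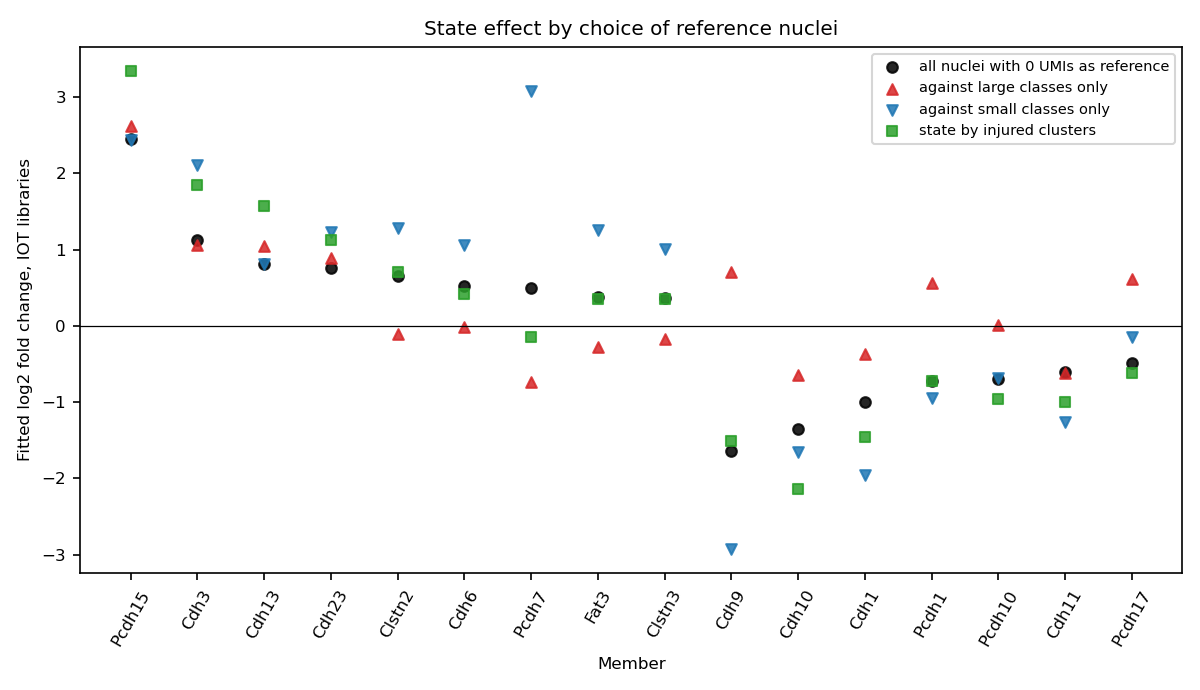
Log2 change in positive nuclei over the IOT libraries for the 16 called members under each reference: all negative nuclei, large classes only, small classes only, and injured clusters. Points of Pcdh15, Cdh3, Cdh13, Cdh23, Cdh10 and Cdh11 stay on one side of 0, and those of Pcdh7 and Cdh9 lie on both sides.

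For the other 9 the call was not kept when only large classes served as reference: Pcdh7, Pcdh1 and Pcdh17, and Cdh9 just under the threshold, were called the other way, and the others had values near 0 or of the other sign that did not pass the test. Cdh9 gave 14.37, 10.62, 11.19 and 13.82 CPM in positive and 43.87, 31.07, 44.67 and 42.08 in negative nuclei, and fell by 1.64 (SE 0.18, adjusted p = 1.57e-05). Against large classes it was 0.71 higher (adjusted p = 0.05) and against small classes the log2 change was -2.93, and the control ratio was -1.78. Pcdh7, with 1195, 537.8, 1762 and 982.3 against 985.2, 509.4, 1071 and 605.9 CPM, rose by 0.49 (SE 0.09, adjusted p = 0.00152) against all negative nuclei but fell by 0.73 against large ones (adjusted p = 0.000187), and its control ratio was 1.22. Clstn2 rose by 0.66 (SE 0.10, adjusted p = 0.0002), from 153.9 to 233.9 CPM in negative to 286.1 to 368.1 in positive nuclei, and was -0.10 against large classes (adjusted p = 0.551). Fat3 (0.37), Cdh6 (0.52) and Clstn3 (0.36) rose, with -0.28, -0.01 and -0.17 against large classes (adjusted p = 0.0626, 0.971 and 0.356). Pcdh1 (-0.72), Pcdh10 (-0.70) and Pcdh17 (-0.49) fell, with 0.56, 0.01 and 0.62 there (adjusted p = 0.0255, 0.992 and 0.00154).

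**Figure D5:**
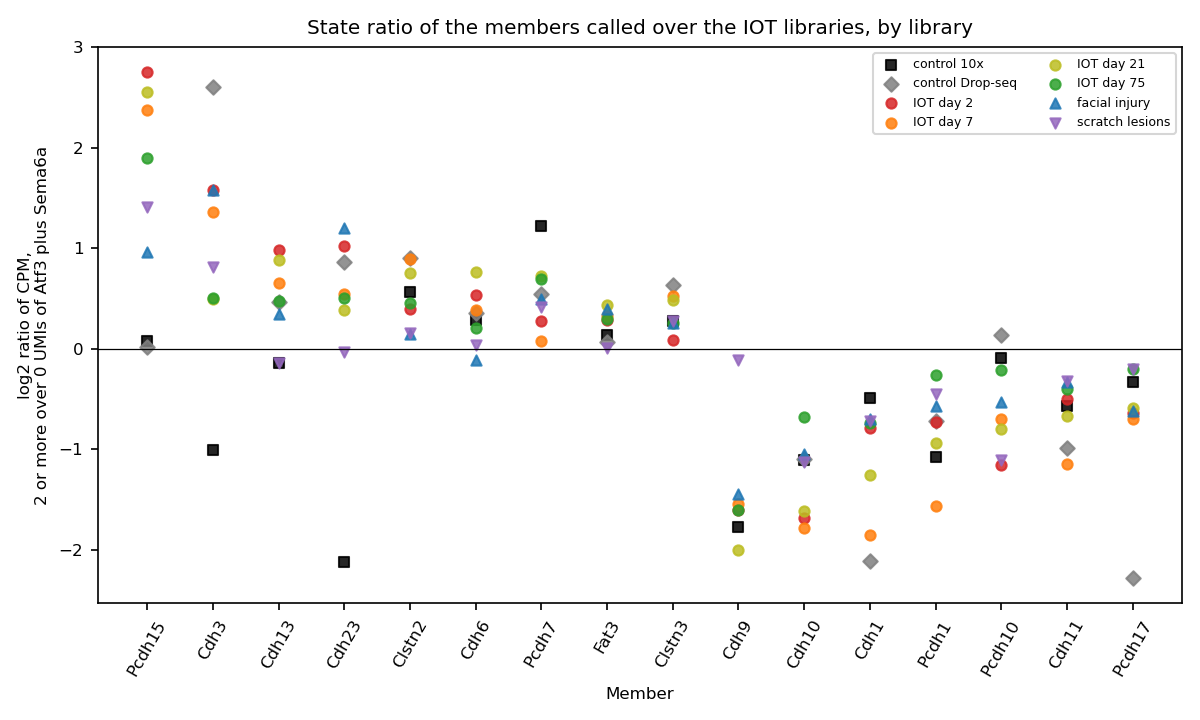
Log2 ratio of CPM in positive over negative nuclei for the called members, 1 point per library, controls included, and no point where a group had 0 UMIs. For Pcdh15 the 10x control point is near 0 (0.08) and the IOT points are far above it, and for Cdh9, Cdh10 and Pcdh7 the 10x control points lie among or beyond the IOT points.

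Markers of other cell types were summed in the same nuclei. Satellite glia markers (6 of 6 with UMIs) summed to 371.8 to 705 CPM in positive and 250.6 to 645.9 in negative nuclei over the IOT libraries. Schwann markers (6 of 6) gave 531.8 to 1335 and 567.7 to 1385, fibroblast markers (6 of 6) 88.35 to 162.8 and 83.3 to 200, vascular markers (5 or 6 of 6) 34.16 to 109.2 and 45 to 79.43, and leukocyte markers (4 or 5 of 6, Cd3e at 0 throughout) 63.61 to 205.1 and 49.78 to 162.7. Leukocyte and satellite glia sums were higher in positive nuclei of all 4, by less than Pcdh15 in each library. At day 7 the satellite glia ratio (399.7 against 250.6 CPM) was larger than those of Cdh13 and Cdh23. At the other times both members had the larger ratio, as Cdh3 had at each time. Their part in the results was not tested. The 9 injury markers summed to 1051 to 3415 and 377.9 to 531.4.

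After the milder injuries 1 of 37 members rose and 2 fell, beside 1.43% and 1.32% of all genes. Pcdh15 stood at 99.17 CPM in positive and 50.98 in negative nuclei after facial injury and at 115.4 and 43.57 with scratch lesions, and rose by 1.16 (SE 0.21, adjusted p = 0.00607). Cdh10 fell by 1.14 (SE 0.23, adjusted p = 0.0142), with 45.56 against 94.51 and 40.55 against 88.76 CPM, and Cdh1 by 0.76 (SE 0.19, adjusted p = 0.0456). None of the 3 was called with either library left out. The effect of IOT minus that of the milder injuries called 0 of 37 members, where 4 genes of 15864 (0.0252%) were higher and 2 (0.0126%) lower, and 7 members had an unadjusted p under 0.05 (5.52% of all genes did). For Pcdh15 it was 1.29 (SE 0.23, adjusted p = 0.117). By injured clusters 9 members were higher after IOT and 1 lower (1.24% and 0.461% of genes). Among them Pcdh15 was higher by 1.67 (SE 0.20, adjusted p = 2.31e-09) and Cdh9 lower by 2.50 (SE 0.28, adjusted p = 3.49e-10). The makeup of these clusters differed: cluster 11 held 470, 445, 228 and 91 nuclei at the IOT times, 51 after facial injury and 57 with scratch lesions, and cluster 23 held 128, 93, 42, 10, 84 and 161. In cluster 11 alone Pcdh15 stood at 1015, 463, 1010, 772.1, 298 and 332.6 CPM in that order, and in cluster 23 at 768.5, 302.1, 853.7, 796.2, 48.04 and 50.77, so that the milder libraries were lowest in both. Cdh9 in cluster 23 stood at 17.32, 27.46, 45.27, 0, 138.1 and 162 CPM, and in cluster 11 at 4.584 to 18.24.

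With time after IOT no member's state effect changed past the threshold (0 of 37, where 0 genes of 15494 rose and 5, 0.0323%, fell, and 5 members had an unadjusted p under 0.05 beside 7.52% of genes). For Pcdh15 the change was -0.16 per doubling of days (adjusted p = 0.367). Calls appeared when some libraries were left out, in fits with fewer residual degrees of freedom than the 2 of the full trend. Without day 2, 5 members rose and 2 fell, but the share of all genes called there is not given. Without day 7 Pcdh15 fell by 0.17 per doubling (adjusted p = 0.0115). Pcdh19 then rose by 0.22 (adjusted p = 0.0029), against 0.24 (adjusted p = 0.277) with all IOT libraries. In cluster 11 alone Pcdh15 stood at 1015, 463, 1010 and 772.1 CPM over the IOT times. The share of positive nuclei in injured clusters also changed with time, and its part in the trend was not tested.

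Positive nuclei of the IOT libraries were split further by markers of the study's 2 injured states, I1 (Gfra1, Piezo2, Ntng1 and Map2) and I2 (Gal, Tshz2, Rgs4 and Cacna1c). I1 held 514, 258, 229 and 184 nuclei and I2 312, 176, 137 and 118, with 291 of 1928 within 0.25 of the dividing score. Of 33 members tested 9 were higher in I1 and 5 lower, beside 8.4% and 7.89% of 11410 genes. Pcdh7 stood at 1606, 689.9, 2236 and 1354 CPM in I1 and at 513.3, 273.2, 879.6 and 489.1 in I2, higher in each library, and differed by 1.51 (SE 0.09, adjusted p = 1.25e-12). Cdh18 (1.26, SE 0.10), Clstn2 (1.11, SE 0.11), Cdh6 (0.95, SE 0.22), Cdh20 (0.85, SE 0.25) and Fat3 (0.82, SE 0.10) were higher in I1 too. Pcdh10 (-1.11, SE 0.24), Pcdh1 (-1.01, SE 0.20), Cdh1 (-0.82, SE 0.18), Pcdh17 (-0.80, SE 0.13) and Cdh4 (-0.45, SE 0.14) were lower. Of these 11, all but Cdh6, Cdh20, Pcdh10 and Pcdh17 are also among the members with the largest differences between large and small classes, in the same direction, and Piezo2 and Ntng1, which helped to define I1, are also among the C4/C6 markers. Pcdh15 was 0.41 higher in I1, but not in each library. It stood at 784.2, 428.6, 577.7 and 227.4 CPM in I1 and at 462.3, 318, 578 and 206.6 in I2, alike at day 21.

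Among 48 genes known to act with cadherins, 47 were tested in positive against negative IOT nuclei, and 4 rose and 9 fell (median 0.04), beside the 8.96% and 7.3% of all genes given above. These counts depend on the reference, as do the shares of all genes. Against large classes 10 were higher and 3 lower of 44, beside 11.4% and 8.58% of all genes. Against small classes 10 and 13 of 44 were, beside 19.2% and 16.4%, and by injured clusters 8 and 12 of 47, beside 13.8% and 11.9%. The higher counts against small classes and by injured clusters were close to those shares. Junction and actin linkers had 4 of 6 lower, among them the receptor phosphatases Ptprm (-0.97, SE 0.12, adjusted p = 5.3e-05) and Ptprf (-0.65, SE 0.12, adjusted p = 0.00145), which bind cadherin complexes, and the scaffold Magi1 (-0.72, SE 0.09, adjusted p = 6.01e-05). The catenins had 1 higher, the p120 relative Pkp4 (0.39, SE 0.10, adjusted p = 0.0169), and 2 lower. Of the Celsr pathway Prickle2 (-0.49, SE 0.10, adjusted p = 0.00355) fell alone. Calsyntenin partners had 1 higher, the adaptor Apba2 (0.62, SE 0.11, adjusted p = 0.00131), and 2 lower. The delta-2 protocadherin actin partners had 2 higher and none lower, and shedding proteases and the Fat and Dachsous pathway had none either way. Of the 6 genes named, only Prickle2 kept its call against the large classes (-0.42, adjusted p = 0.0164), where Ptprm was 0.17 (adjusted p = 0.535), Magi1 -0.09 (0.599), Ptprf -0.25 (0.168), Apba2 0.12 (0.583) and Pkp4 -0.04 (0.88). Prickle2 in turn lost it against the small classes (-0.12, adjusted p = 0.42). The 10x control had log2 ratios of -1.2 for Ptprm, -1.05 for Magi1, -0.469 for Ptprf, 0.285 for Apba2, -0.453 for Prickle2 and 0.687 for Pkp4 by the same split.

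Negative nuclei of the IOT libraries were set beside those of the 10x control without a test, since each condition is 1 library. Negative nuclei had 0 captured UMIs of Atf3 and Sema6a and can include injured neurons. Of 538 nuclei in injured clusters at day 7, 367 were positive and the others had 1 UMI or 0. The log2 ratios to the control followed gene length in some libraries (Pearson's r over 29 members 0.69 at day 2, -0.0764 at day 7, 0.617 at day 21 and -0.118 at day 75). Of 29 members at 10 CPM or more in the control, 0 were over 1.5-fold higher and 0 over 1.5-fold lower in 4 of 4 IOT libraries. Pcdh15 there was 77.75 CPM in the control and 98.66, 74.86, 98.47 and 58.6 after IOT, and Cdh9 41.02 against 43.87, 31.07, 44.67 and 42.08. With all nuclei counted, Pcdh18 alone was lower in each, at 0.595 to 0.646 of the control. Dchs2, just under the limit at 9.062 CPM (95% counting interval 7.588 to 10.74), stood at 32.51, 35.55, 13.49 and 8.597 after IOT and at 1.904 and 3.668 in the milder libraries, a name chosen after its values were seen. In Drop-seq 24 of 29 members were lower than in the 10x control, with a median ratio of 0.561 (0.35 to 1.46).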

How the data were processed

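Single-nucleus libraries of NeuN-selected trigeminal nuclei were analysed as 8 tables of UMI counts per gene and nucleus, deposited by the authors: 7 from 10x version 2 chemistry (1 per condition) and 1 Drop-seq table that pools 4 control samples. Per the labels, alignment used STAR 2.5.3a and Cell Ranger 2.1.0 on an mm10 pre-mRNA model, so that intron reads count, after bcl2fastq 2.17 (tools as in the submitters' processing notes, which also list Seurat 2), and clusters of non-neuronal nuclei had been taken out before deposit. Reads in overlapping genes are lost by such a model, and long introns raise counts. Of the symbols 22593 (93.2%), all 39 members included, were found in GENCODE vM21, which gave coordinates.

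Members and lists were chosen with earlier results of these data known, the Pcdh7 and Cdh9 patterns among them. Nuclei were clustered on 2000 genes of 14905 shared by all tables (181 genes withheld, among them members and markers; 30 principal components, 20 neighbors, Leiden resolution 1), and a cluster was named at a marker mean z of 0.5 with a lead of 0.25 and 3 markers. These thresholds were set after seeing the data. No doublet caller was run, and the top 5% of nuclei by UMIs were left out as an alternative. Counts were summed per library and group and tested with edgeR 4.0.16 (R 4.3.3; TMM scaling, low-count filter, quasi-likelihood test, library as a block, Benjamini-Hochberg adjustment over all genes tested). A call is an adjusted p under 0.05. Nuclei are not replicates, each condition is 1 library, and p-values measure the spread of differences over libraries of different conditions. Counting intervals (95%) cover counting error only. Residual degrees of freedom were 4 for injury state, 2 for the time trend, 6 for large against small, 42 for classes and 3 for I1 against I2. Values were given in full for the genes the study names (Cdh9, Pcdh7, Fat3) and, among called members at 10 CPM or more, up to 12 each way for injury state, 6 each way for size and I1 against I2, 4 higher per class where the level was above the mean of the other classes in 7 of 7 libraries, and 6 partner genes. Scripts were tested on simulated counts. Python 3.11.15, numpy 2.4.6, pandas 2.3.3, scipy 1.17.1, scikit-learn 1.9.0, matplotlib 3.10.9 and DESeq2 1.42.0 were also used. Sequences are from RefSeq.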

Additional observations from a re-analysis of the deposited data

Results flagged for a closer look

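In groups of 4 to 7 libraries, 5 of 54 had a library whose gap to the nearest of the others exceeded Dixon's 95% critical value, where chance gives about 1 in 20. The Cdh9 log2 ratio of positive over negative nuclei was -2 at IOT day 21 and -1.61 to -1.55 at the other 3 times. The Cdh10 ratio was -0.676 at day 75 and -1.79 to -1.62 at the other times. The Clstn2 log2 ratio of large over small classes was 1.72 at IOT day 21 and 1.2 to 1.42 in the other 10x libraries. The Pcdh1 ratio of C12 over the other classes was 1.11 at IOT day 21 and 0.378 to 0.647 elsewhere, and the Fat3 ratio of C5 was 1.62 at day 75 and 1.79 to 1.85 elsewhere. No direction turned in any of them.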

How the results depend on the processing

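Counts of members under other settings are given as higher and lower. The share of all genes called moved with the setting as well, so counts without that share beside them are no result about the family. Between conditions no paired analysis was possible because each is 1 library and replicate numbers follow accession order. Within a library, groups of nuclei were paired through the library block, and without it the injury state after IOT called 1 and 2 (9 and 7 with it), the milder injuries 0 and 0 (1 and 2), and I1 against I2 0 and 0 (9 and 5). For IOT the small classes alone as reference gave 16 higher (19.2% of all genes) and the injured clusters 11 lower (11.9% of all genes). Of all genes, the milder injuries had 4.56% higher and 3.23% lower against large classes. Against small classes these shares were 7.54% and 5.67%, and by injured clusters 3.57% and 5.25%. For the milder injuries, higher counts were 2 with thinning, 4 against large classes, 7 against small classes and 3 by injured clusters, and lower counts were 1 under DESeq2, without TMM, with Sema6a only and without the top 5% of nuclei, 0 with 1 or more UMIs and with thinning, 6 with Atf3 only, 7 and 5 against large and small classes and 12 by injured clusters. IOT minus milder injury had 1 higher under DESeq2, without a filter, with thinning and without the top 5%, 2 with Atf3 only, and 9 higher and 1 lower by injured clusters. I1 against I2 had 5 higher under DESeq2, and 14 higher and 9 lower with 1 or more UMIs. Libraries left out in turn gave 6 to 10 and 6 to 8 for IOT, 0 to 2 each way for the milder injuries, 0 to 1 and 0 for their difference, 0 to 5 and 0 to 2 for the trend, 14 to 17 and 13 to 14 for size, 6 to 9 and 4 to 5 for I1 against I2, and 79 to 83 and 80 to 92 over the 8 classes (83 and 94). With all nuclei 1 member was lower in each IOT library. Against large classes the sign differed for 9 members, of which 4 (Pcdh7, Pcdh1, Pcdh17 and, just under the threshold, Cdh9) were called that way: Clstn2 -0.10, Cdh6 -0.012, Pcdh7 -0.73, Fat3 -0.28, Clstn3 -0.17, Cdh9 0.71, Pcdh1 0.56, Pcdh10 0.0065 and Pcdh17 0.62. Pcdh7 was also -0.23 with Atf3 only and -0.15 by injured clusters. The cause was not tested. Of all values recomputed for named members, 819 kept direction and side of the threshold, 50 lost the call, 10 moved and 11 differed in sign. Depth limits Cdh3 and Cdh23, with 1 UMI each in positive control nuclei.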

Other observations

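The ratio of each member's CPM in negative nuclei to the 10x control followed gene length differently from library to library. Over the 29 members at 10 CPM or more in the control, Pearson's r between log2 ratio and log2 length was 0.69 at IOT day 2 and 0.617 at day 21 (Spearman's rho 0.708 and 0.6), -0.0764 at day 7 and -0.118 at day 75 (-0.139 and -0.158), -0.679 after facial injury (-0.722), -0.469 with scratch lesions (-0.478) and -0.673 in Drop-seq (-0.675). The correlations run across genes, which are not independent replicates, share the control library and carry no test. The 19 members of 100 kb or more had median ratios of 1.12 at day 2 and 1.07 at day 21 but 0.792 after facial injury and 0.487 in Drop-seq. The 10 shorter ones, Clstn1, Pcdh1 and Cdh1 among them, had 0.699, 0.674, 1.06 and 0.985. Over 9625 genes at the same level, r was 0.441 at day 2, 0.126 at day 21 and -0.463 after facial injury (rho 0.49, 0.0138 and -0.573), so that all genes shared the direction at day 2 and after facial injury, while at day 21 the relation was near 0 over all genes. Long members such as Pcdh9, Pcdh15, Cdh12, Cdh13 and Cdh18 and short ones thus compared differently with the control from library to library, and the part of length in any ratio between libraries was not tested.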
